A study of Homo sapiens with 9 samples.

Results

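PIM1, PIM2 and PIM3 are the 3 members of the PIM family of kinases, and they were taken from the table of gene counts by their symbols. They are 3 of 59050 symbols in the table, and all 3 were among the 13463 genes that passed the filter on low counts (CPM, counts scaled to library size, above 1 in at least 3 libraries). RNA came from MEC1, an established line of chronic lymphocytic leukemia (CLL) B cells, in 9 samples. In 3 of them the cells grew in conventional 2D culture, for which the labels give no time. In the other 6 the cells were bioprinted in a 3D hydrogel, in the same medium, and were harvested after 7 days (3D_7d, 3 samples) or 14 days (3D_14d, 3 samples). The hydrogel inks in the study's methods consist of sodium alginate and nanofibrillar cellulose, crosslinked with calcium chloride, and the study printed MEC1 cells with CELLINK Bioink, which holds no added laminin. The labels name the cell line MEC1, while the sample titles begin with MECPGK, letters that the labels do not explain, so that a derivative of the line cannot be told apart from it here. No drug or genetic change distinguishes the groups, and all samples derive from 1 cell line, so they do not sample differences between patients. RNA of the scaffolds was extracted with TRIzol, DNase and then the column kit, and that of 2D cells with the column kit alone, so that 3D culture and this extraction cannot be told apart. The labels number the replicates without saying whether they are separate cultures, and p-values then measure the spread between these samples, which may be technical.

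PIM kinases are serine/threonine kinases of the cytoplasm and nucleus that promote survival, protein synthesis and cell cycle entry in lymphoid cells. They are active as soon as they are made, without a regulatory domain or an activating phosphorylation by another kinase, so that the amount of mRNA and the stability of the protein largely set their activity. Cytokines induce PIM1 and PIM2 through JAK kinases and STAT factors, and their targets include the apoptosis factor BAD, the cell cycle inhibitors CDKN1A and CDKN1B, the translation repressor EIF4EBP1 and MYC, whose oncogenic activity PIM kinases enhance. In CLL the family has been studied as a drug target, PIM1 in particular for its phosphorylation of the homing receptor CXCR4.

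The promoters are printed because the 3 genes, despite their related products, did not move in the same direction. Each sequence runs from 250 bases before to 50 bases after the RefSeq start site (build GRCh38.p14), 5′ to 3′ on the strand of the gene. PIM1 is shown at chr6:37169902-37170201 on the plus strand, PIM2 at chrX:48918975-48919274 on the minus strand and PIM3 at chr22:49960522-49960821 on the plus strand. Capitals mark matches on either strand to the octamer ATGCAAAT, the GC box GGGCGG and the CCAAT box.
PIM1: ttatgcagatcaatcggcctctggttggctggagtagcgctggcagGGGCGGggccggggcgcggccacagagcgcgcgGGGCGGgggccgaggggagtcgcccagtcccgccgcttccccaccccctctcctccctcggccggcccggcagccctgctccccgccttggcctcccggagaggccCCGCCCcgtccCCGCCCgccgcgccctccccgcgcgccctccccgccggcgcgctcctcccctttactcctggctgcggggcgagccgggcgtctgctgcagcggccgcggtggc
PIM2: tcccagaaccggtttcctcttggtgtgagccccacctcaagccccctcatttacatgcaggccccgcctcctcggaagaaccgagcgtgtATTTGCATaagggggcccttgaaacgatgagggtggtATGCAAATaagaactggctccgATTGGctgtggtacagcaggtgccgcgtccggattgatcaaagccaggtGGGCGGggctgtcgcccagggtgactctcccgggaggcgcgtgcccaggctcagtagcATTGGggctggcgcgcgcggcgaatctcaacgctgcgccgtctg
PIM3: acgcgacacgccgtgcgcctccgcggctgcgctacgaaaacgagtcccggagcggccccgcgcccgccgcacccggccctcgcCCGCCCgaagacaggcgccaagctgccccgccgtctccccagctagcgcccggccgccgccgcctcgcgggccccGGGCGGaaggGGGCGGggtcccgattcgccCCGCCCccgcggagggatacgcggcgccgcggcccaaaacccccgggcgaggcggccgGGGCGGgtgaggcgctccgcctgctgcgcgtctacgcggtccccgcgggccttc
The PIM1 and PIM3 promoters consist of G and C for 79.7% and 81.3% of their bases, and the PIM2 promoter for 62.3%, where the median of 35114 promoters of this length was 58.7%. The PIM1 promoter held 4 GC boxes and that of PIM3 held 5, with no match to the octamer or the CCAAT box in either window. The PIM2 promoter held 1 GC box, 2 CCAAT boxes and 2 octamers, whose first bases lie 160 and 123 bases before the start site. Octamers, the sequence bound by the POU factors OCT1 and OCT2 of B cells, were present in 1.77% of all promoters, GC boxes in 45.0% and CCAAT boxes in 34.6%. No promoter of the family held a TATA box (TATAAA, in 11.5% of promoters), an E-box of the type bound by MYC (CACGTG, 7.26%) or a STAT site (TTCNNNGAA, 7.66%) in these windows. None of the matches overlapped another. The motifs were chosen after the expression values were known, and a match describes the letters and does not show that a factor binds.

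In the count table (GRCh38), PIM1 spans 37170152 to 37175428 of chromosome 6, PIM2 spans 48913182 to 48919024 of chromosome X and PIM3 spans 49960772 to 49964072 of chromosome 22. Their exons cover 2703, 2075 and 2102 bases and share no base with the exons of another gene in the table, although MIR6821, a microRNA gene, lies within the span of PIM3 outside its exons. The longest identical stretch between PIM transcripts was 23 bases, between PIM1 and PIM3, shorter than the reads of 100 nt.

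Between 54662799 and 85968686 reads per library were assigned to genes. Replicates differed by more than counting error, most within 3D_14d, where replicate 1 stood apart where its chi-square per gene against the others was 253 and 305. All 6 B-cell markers used (CD79A, CD79B, MS4A1, PAX5, CD22 and CD74) passed the filter, with a summed level of 10196 to 11686 CPM in 2D, 10891 to 13575 at day 7 and 15568 to 17670 at day 14, while CD5, a marker of CLL, was under 1 CPM in all libraries. Of 18 markers of T, NK, myeloid, stromal and endothelial cells, 6 passed the filter. Their summed levels moved with the groups, from 348 to 379 CPM in 2D to 538 to 658 CPM at day 14 for the T-cell list, which TRAC alone carried past the filter, and from 20.6 to 25.9 CPM to 44.6 to 75.2 CPM for the stromal and endothelial list. The NK-cell list stood at 2.12 to 3.11 CPM in 2D and 5.07 to 6.09 at day 14, and the myeloid list at 1.61 to 2.39 and 3.84 to 4.59. CD3D of the T-cell list was at 0 in all 2D and all 3D_14d libraries, as was LYZ of the myeloid list. At day 7 both had reads, though under 1 CPM in every library. CD3E was under 1 CPM in all 3D libraries but not in all 2D libraries, and ITGAM of the myeloid list passed the filter. The part of these transcripts in the results below was not tested. Mitochondrial transcripts took 2.30% to 2.83% of the counts in 2D, 1.44% to 1.64% at day 7 and 1.62% to 2.82% at day 14.

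Per exon length, PIM2 was the most abundant family member in every library, followed by PIM3 and PIM1. In 2D culture PIM2 had 204 ± 3.31 RPKM (read counts scaled to exon length and library size, mean ± SD, n = 3), PIM3 151 ± 25.4 and PIM1 33.8 ± 1.70. These levels lie high in the MEC1 transcriptome, with 97.7% of the tested genes below PIM2, 96.6% below PIM3 and 82.8% below PIM1. At day 14, 98.7% of the tested genes lay below PIM2, 92.9% below PIM3 and 76.7% below PIM1.

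Culture in 3D was compared with 2D, where printing, growth in the scaffold and the extraction of RNA differed together. In 3D, PIM3 and PIM1 were down-regulated and PIM2 was up-regulated, at both time points. All 3 genes passed the threshold, an adjusted p of 0.05 in the quasi-likelihood test of edgeR, adjusted by Benjamini-Hochberg over all tested genes, on a background in which 43.4% of the genes tested were called at day 7 and 36.2% at day 14. By direction, 21.2% of the genes were called lower and 22.2% higher at day 7, and 17.2% and 19.0% at day 14. Among called genes the higher ones were 51.1% (day 7) and 52.5% (day 14), or 37.6% and 33.0% when libraries were scaled by total counts alone, which kept the direction and the call of each PIM gene. The libraries of the compared groups did not overlap for any of the 3 genes at either time, a property shared by 64.6% of the tested genes at day 7 and by 49.7% at day 14. With so many genes called, nothing is read from the count of members, and the family is described gene by gene. In these bulk samples, a lower level per cell and a smaller share of cells with the transcript cannot be told apart.

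PIM3 had the largest change of the family at day 7. At day 14 the log2 fold change of PIM2, at 0.90, was larger in size than that of PIM3, at -0.66. With libraries scaled by total counts alone this order was reversed, at 0.70 for PIM2 and -0.85 for PIM3. The sizes were not compared by a test. The CPM of PIM3, scaled between libraries by edgeR's TMM factors, was 328, 324 and 230 in the 2D libraries 1 to 3, 106, 75.8 and 92.5 at day 7, and 151, 217 and 190 at day 14. Every 2D library was above every 3D library, although 2D replicate 3 at 230 lay close to 3D_14d replicate 2 at 217. Its mean was 294 ± 55.6 CPM (SD, n = 3) in 2D and 91.4 ± 15.1 at day 7, with a log2 fold change of -1.69 (standard error 0.194, 95% interval -2.10 to -1.27, adjusted p = 4.02e-05 from edgeR). At day 14 it stood at 186 ± 33.1 CPM, and the log2 fold change against 2D was -0.66 (standard error 0.189, 95% interval -1.07 to -0.25, adjusted p = 0.0162 from edgeR). The day 14 call was lost without 2D replicate 1, at a log2 fold change of -0.60 (adjusted p = 0.0527 from edgeR), and without 2D replicate 2, at -0.62 (adjusted p = 0.0534 from edgeR), within a range of 0.00335 to 0.0534 over all alternatives. Exons of PIM3 are 65.4% G and C, more than those of 97.3% of the tested genes, and once each library was corrected for a trend with exon GC its log2 fold change was -1.40 at day 7 and -0.77 at day 14.

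PIM1, the first family member to be described and the one tied to CXCR4, was also lower in 3D, with a smaller change. The 2D libraries had 84.7, 81.6 and 86.7 CPM, those at day 7 had 47.0, 44.2 and 44.4, and those at day 14 had 45.7, 69.7 and 60.2. No 3D library reached the 2D range, and the SD was at most 3.45% of the mean in 2D and at day 7 but 20.6% at day 14, where replicate 1 was the lowest. Between 2D and day 7 the mean fell from 84.3 ± 2.57 CPM to 45.2 ± 1.56 (SD, n = 3), with a log2 fold change of -0.90 (standard error 0.159, 95% interval -1.24 to -0.55, adjusted p = 0.00075 from edgeR). At day 14 the mean was 58.5 ± 12.1 CPM and the log2 fold change -0.53 (standard error 0.158, 95% interval -0.87 to -0.18, adjusted p = 0.0204 from edgeR). Without 3D_14d replicate 1 the latter was -0.37 (adjusted p = 0.0257 from edgeR), within a range of adjusted p from 0.00586 to 0.0484 over all alternatives.

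PIM2, the member most associated with lymphoid cells and with the survival of B-lineage tumours, moved the other way. Its CPM was 391, 398 and 380 in the 2D libraries, 489, 601 and 593 at day 7, and 655, 818 and 712 at day 14. The 3 groups did not overlap, and their order was 2D, then day 7, then day 14. From 390 ± 8.95 CPM (SD, n = 3) in 2D, the level was 561 ± 62.2 at day 7, a log2 fold change of 0.52 (standard error 0.140, 95% interval 0.22 to 0.83, adjusted p = 0.00929 from edgeR). It was 729 ± 82.4 CPM at day 14, where the log2 fold change was 0.90 (standard error 0.141, 95% interval 0.60 to 1.21, adjusted p = 0.000446 from edgeR). The call at day 14 passed under every alternative that was run, with an adjusted p between 2.25e-08 and 0.00541. The call at day 7 was less stable. It was lost without 2D replicate 1 (log2 fold change 0.49, adjusted p = 0.0508 from edgeR), 2D replicate 2 (0.49, adjusted p = 0.0527), 2D replicate 3 (0.46, adjusted p = 0.0609), 3D_7d replicate 2 (0.44, adjusted p = 0.0633) or 3D_7d replicate 3 (0.44, adjusted p = 0.0616), and with no filter on low counts (0.52, adjusted p = 0.0722).

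**Figure D1:**
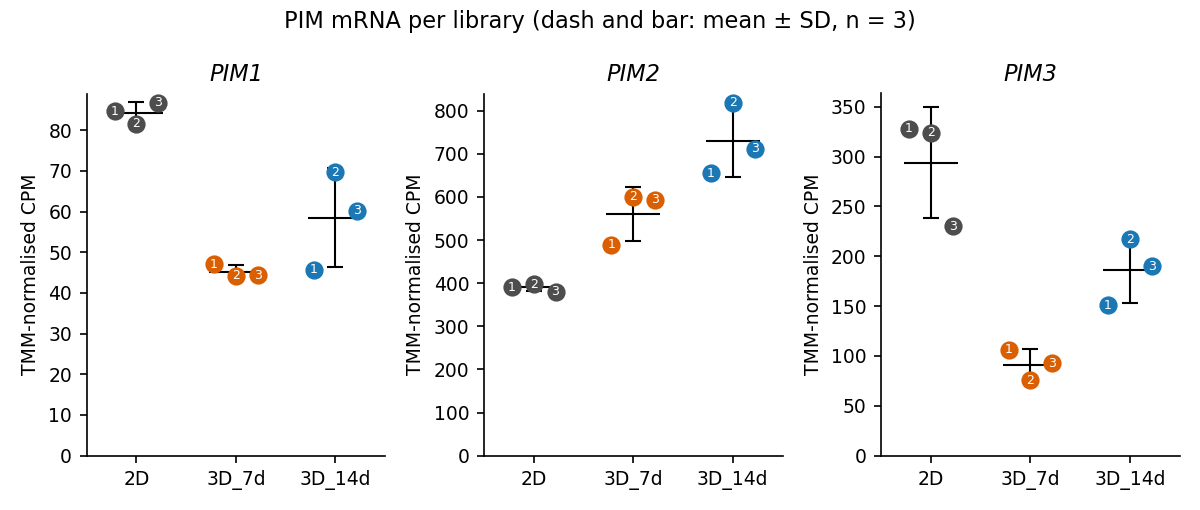
Level of PIM1, PIM2 and PIM3 in TMM-normalised CPM (y axes, each starting at 0) in the 3 culture conditions. Numbered points are libraries with their replicate number, dashes and bars are the mean ± SD of 3. PIM1 and PIM3 are lower in all 3D libraries than in all 2D libraries, and PIM2 is higher.

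**Figure D2:**
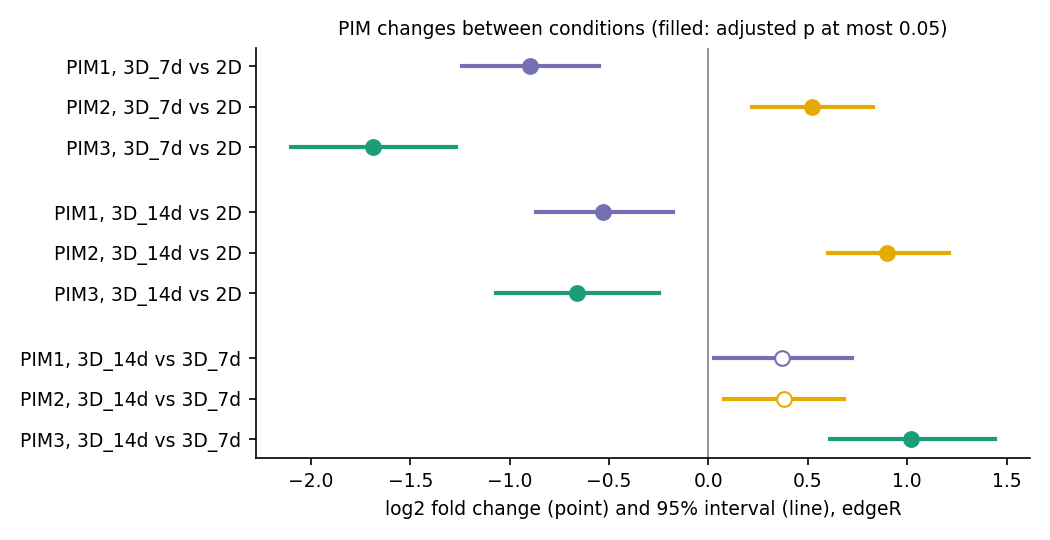
Log2 fold changes of the PIM genes (points) with their 95% intervals (lines) from edgeR in the 3 comparisons, where filled points have an adjusted p of at most 0.05. The intervals of PIM1 and PIM3 lie below 0 and those of PIM2 above 0 in both comparisons with 2D, and between the time points only PIM3 is filled, at 1.02.

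Since the genes moved in opposite directions, the makeup of PIM mRNA differed between conditions more than its sum. Ratios between genes of the same library need no scaling between libraries, but a trend with exon GC does not cancel between genes of unlike GC. Exons of PIM3 are 65.4% G and C and those of PIM2 55.1%, and the ratios were not corrected for this trend. Its removal changed the log2 fold change between the time points from 1.02 to 0.63 for PIM3 and from 0.38 to 0.33 for PIM2. In RPKM, PIM2 exceeded PIM3 by 1.21, 1.25 and 1.68 times in the 2D libraries, 4.68, 8.03 and 6.49 times at day 7, and 4.40, 3.82 and 3.80 times at day 14. The 3 conditions did not overlap in this ratio, although 4.68 at day 7 lay close to 4.40 at day 14. The ratio of PIM2 to PIM1 was 5.71 to 6.35 in 2D, 13.6 to 17.7 at day 7 and 15.3 to 18.7 at day 14, so that both time points were above 2D and overlapped each other. The ratio of PIM3 to PIM1 was 3.41 to 5.10 in 2D, 2.20 to 2.90 at day 7 and 4 to 4.25 at day 14, with the range of day 14 inside that of 2D. The share of PIM2 in the summed RPKM of the family was 52.5% ± 3.42 (SD, n = 3) in 2D, 81.6% ± 3.59 at day 7 and 76.2% ± 1.58 at day 14. That of PIM3 was 38.7% ± 4.38, 13.3% ± 3.07 and 19.1% ± 1.16, and that of PIM1 was 8.75% ± 0.993, 5.09% ± 0.557 and 4.66% ± 0.418. The sum itself was 362 to 405 RPKM in 2D, 301 to 332 at day 7 and 357 to 486 at day 14, where the lowest value belonged to replicate 1. Shares and sums are given as a description, without a test.

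**Figure D3:**
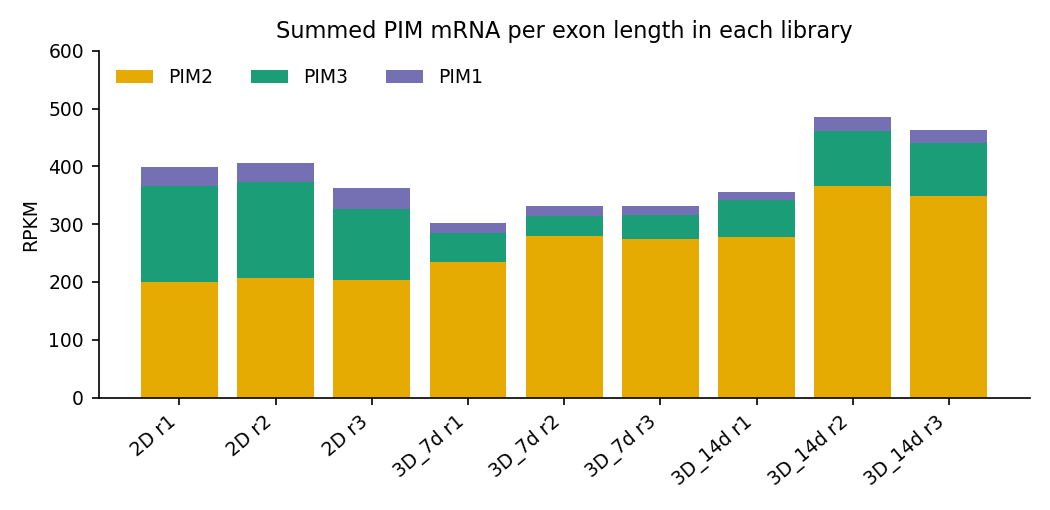
RPKM of PIM2, PIM3 and PIM1 stacked in each of the 9 libraries (r1 to r3 are the replicates), with the height of a bar the summed level of the family. PIM3 takes 33.7% to 41.5% of the bar in 2D and 10.5% to 19.8% in 3D.

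Day 14 was compared with day 7 to follow the genes within the scaffold, where the extraction was the same. In this comparison 28.1% of the genes tested passed the threshold. PIM3 was 2.03 times as high at day 14 as at day 7, a log2 fold change of 1.02 (standard error 0.191, 95% interval 0.61 to 1.44, adjusted p = 0.0025 from edgeR), and its groups did not overlap, as for 39.3% of all tested genes. It remained below 2D at day 14, and its order was 2D, day 14, day 7, with each neighbour apart by the test. The step from 2D to day 14 lost its call without 2D replicate 1 (adjusted p = 0.0527 from edgeR) or 2D replicate 2 (adjusted p = 0.0534). With the GC trend removed, the log2 fold change between the time points was 0.63 (adjusted p = 0.0259 from edgeR), within a range of adjusted p from 3.2e-06 to 0.0415 over all alternatives. PIM1 did not pass, with a log2 fold change of 0.37 (95% interval 0.03 to 0.72, adjusted p = 0.0962 from edgeR), and its libraries overlapped between the time points. Without 3D_14d replicate 1, PIM1 passed at 0.54 (adjusted p = 0.0055 from edgeR), within a range from 0.0055 to 0.484. PIM2 had a log2 fold change of 0.38 (95% interval 0.08 to 0.68, adjusted p = 0.0605 from edgeR), with all day 14 libraries above all day 7 libraries. It passed without 3D_14d replicate 1, at 0.47 (adjusted p = 0.0158 from edgeR), and with the Wald test of DESeq2, at 0.39 (adjusted p = 0.031), within a range from 0.0158 to 0.489. The comparisons of day 7 and day 14 with 2D share the 2D libraries.

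The genes that act with PIM kinases were grouped by their role, from upstream to downstream. Of 47 listed genes, 46 were tested. At day 7, 11 were up-regulated and 10 down-regulated, which is 45.7% against 43.4% of all genes, and at day 14, 10 and 11, or 45.7% against 36.2%. The median log2 fold change of the listed genes was 0.16 at day 7 and 0.05 at day 14, beside medians of all tested genes of 0.00 and 0.02. The genes thus moved in both directions, and the groups are given by count. Of all genes tested, 22.2% were called higher and 21.2% lower at day 7, and 19.0% and 17.2% at day 14.

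Among the 9 inducers of PIM transcription, 4 rose and none fell at day 7, or 44.4% against 43.4% of all genes called. At day 14, 2 rose and none fell, or 22.2% against 36.2%. The median log2 fold changes were 0.59 at day 7 and 0.28 at day 14. JAK1, a kinase of cytokine receptors, had 178 ± 8.92 CPM in 2D (SD, n = 3) and rose to 482 ± 16.3 at day 7 and 374 ± 93.4 at day 14 (adjusted p = 6.02e-05 and 0.00057 from edgeR). STAT3, one of the factors that JAK kinases activate, rose from 169 ± 7.33 to 343 ± 10.7 CPM at day 7 (adjusted p = 0.000919 from edgeR) and stood at 268 ± 75.8 at day 14 (adjusted p = 0.0145, or 0.0516 to 0.0611 without any 1 of the 2D libraries and 0.0912 with total counts alone). STAT5A and STAT5B, the classical activators of PIM1, did not pass in either comparison, with log2 fold changes of 0.38 and 0.11 at day 7 and of 0.07 and -0.21 at day 14. These values were looked up outside the rule for named genes, as were those of NFKB1, at -0.10 and 0.03. Of the feedback inhibitors of cytokine receptors, SOCS1 had 87.5 ± 8.82 CPM in 2D. It had 90.4 ± 11.9 at day 7 and 145 ± 5.96 at day 14, with log2 fold changes of 0.05 (adjusted p = 0.813 from edgeR) and 0.73 (adjusted p = 0.0018 from edgeR). With the GC trend removed, SOCS1 passed at day 7 as well, at 0.46 (adjusted p = 0.00933 from edgeR). SOCS3 was near the CPM of 1 used in the filter, where 2D cells had 2.99 ± 0.758 CPM and 3D cells 1.33 ± 0.471 at day 7 and 1.32 ± 0.248 at day 14. Per library, SOCS3 had 165 to 292 counts in 2D, 49 to 98 at day 7 and 55 to 85 at day 14. It passed at day 7 (adjusted p = 0.0259 from edgeR) and at day 14 (0.0296), but not at day 7 without 2D replicate 1, 2D replicate 2, 3D_7d replicate 1 or 3D_7d replicate 3 (0.0606 to 0.096), nor at day 14 without 2D replicate 1, 2D replicate 2 or 3D_14d replicate 2 (0.0742 to 0.109).

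PIM mRNAs are short-lived and carry AU-rich elements, which proteins of the ZFP36 family bind to promote decay. Of 4 genes for proteins that bind AU-rich mRNA, 2 fell at day 7, or 50% against 43.4% of all genes called. At day 14, 1 fell and 1 rose, or 50% against 36.2%. One of the 4, ELAVL1, looked up outside the rule for named genes, is not of the ZFP36 family and did not pass at either time. ZFP36 had 140 ± 6.79 CPM in 2D (SD, n = 3) and fell to 58.1 ± 13.2 at day 7 (adjusted p = 0.000886 from edgeR) and had 100 ± 36.0 at day 14 (adjusted p = 0.121). ZFP36L1 fell from 173 ± 11.8 to 95.4 ± 26 and 87.2 ± 18.7 CPM (adjusted p = 0.00431 and 0.00248 from edgeR). ZFP36L2 had 58.8 ± 18.2, 36.1 ± 17.8 and 110 ± 28.8 CPM. Its call at day 14 (adjusted p = 0.0447 from edgeR) was lost without any 1 of the 2D libraries, 3D_7d replicate 3, 3D_14d replicate 2 or 3D_14d replicate 3 (0.0545 to 0.185), and in 10 of 19 alternatives in all.

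Of 5 genes that govern the stability of PIM proteins, 4 rose and none fell at day 7, or 80% against 43.4% of all genes called. At day 14, 2 rose and none fell, or 40% against 36.2%. The list holds both genes that protect PIM proteins and genes that promote their loss, so the counts give no direction for stability. HSP90AA1, a chaperone that protects PIM1 from degradation, rose from 632 ± 20.5 CPM (SD, n = 3) to 1098 ± 87.1 at day 7 (adjusted p = 0.003 from edgeR). At day 14 HSP90AA1 had 614 ± 165 CPM, with a log2 fold change of -0.04 against 2D (adjusted p = 0.875 from edgeR) and of -0.84 against day 7 (adjusted p = 0.00475). It has near-identical copies in the genome, and its count is uncertain because the handling of reads with several alignments is not known. PPP2R1A, the scaffold subunit of the phosphatase PP2A that promotes the loss of PIM proteins, rose from 251 ± 22.4 to 502 ± 24.5 CPM at day 7 and 464 ± 87.9 at day 14 (adjusted p = 0.000334 and 0.000974 from edgeR). PPP2CA, a catalytic subunit of PP2A, rose from 260 ± 6.89 to 384 ± 29.3 CPM at day 7 (adjusted p = 0.00355 from edgeR). At day 14 it had 343 ± 25.2 CPM (adjusted p = 0.0267 from edgeR), and the call was lost without any 1 of the 2D libraries, 3D_7d replicate 2 or 3D_7d replicate 3 (0.0536 to 0.129), and in 8 of 19 alternatives in all. Transcript levels give no measure of the proteins.

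Among the targets, those of protein synthesis moved in both directions. EIF4EBP1, which blocks cap-dependent translation until it is phosphorylated, fell from 204 ± 30.3 CPM (SD, n = 3) to 47.2 ± 4.58 at day 7 and stood at 116 ± 13.4 at day 14. Its log2 fold changes against 2D were -2.11 (adjusted p = 3.67e-06 from edgeR) and -0.81 (adjusted p = 0.00149), and that between the time points was 1.30 (adjusted p = 0.000209), or 0.84 with a trend with gene length removed (adjusted p = 0.000621). TSC2, an inhibitor of mTORC1, rose from 64.5 ± 8.04 to 133 ± 13.1 CPM at day 7 (adjusted p = 0.00128 from edgeR). At day 14 it had 94.6 ± 29.8 CPM (adjusted p = 0.0452 from edgeR). That call was lost without any 1 of the 2D libraries, any 1 of the 3D_7d libraries or 3D_14d replicate 2 (0.0555 to 0.183), and in 13 of 19 alternatives in all. Without 3D_14d replicate 2 its log2 fold change was 0.27 in place of 0.55. AKT1S1, another brake on mTORC1, had 10.4 ± 1.18 CPM in 2D and 16.0 ± 3.42 at day 14 (adjusted p = 0.0261 from edgeR, or 0.0737 to 0.144 without any 1 of the 2D libraries or 3D_14d replicate 3), a call lost in 9 of 19 alternatives in all.

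Of 7 cell cycle targets, 1 rose and 2 fell at day 7, and 4 fell at day 14, with median log2 fold changes of -0.08 and -0.87. CDKN1B, the inhibitor p27 whose transcription and protein PIM kinases reduce, fell from 11.7 ± 0.459 CPM (SD, n = 3) to 3.87 ± 1.25 at day 7 and 6.39 ± 1.23 at day 14 (adjusted p = 0.000424 and 0.0174 from edgeR). The day 14 call of CDKN1B was lost without 2D replicate 3 (0.0521) or 3D_14d replicate 3 (0.0557). CDC25C, a phosphatase of mitotic entry, fell from 28.9 ± 3.23 to 12.7 ± 0.733 and 9.41 ± 2.70 CPM (adjusted p = 0.000876 and 0.000177 from edgeR). MARK3, the kinase that restrains CDC25C, rose from 80.8 ± 6.12 to 141 ± 12.9 CPM at day 7 (adjusted p = 0.000555 from edgeR) and had 94.7 ± 8.05 at day 14 (adjusted p = 0.204). SKP2, the subunit of the ubiquitin ligase that removes CDKN1B, had 37.4 ± 0.863 CPM in 2D and 35.5 ± 1.93 at day 7 (adjusted p = 0.749 from edgeR), and fell to 17.1 ± 4.33 at day 14 (adjusted p = 0.000513).

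None of the 5 survival targets passed at day 7, and 1 rose at day 14. BAD, the apoptosis factor that PIM kinases inactivate, had 74.3 ± 10.3 CPM (SD, n = 3) in 2D, 105 ± 4.81 at day 7 (adjusted p = 0.118 from edgeR) and 158 ± 72.0 at day 14 (adjusted p = 0.00478). Its log2 fold change at day 14 was 1.08 with all libraries and 0.65 without 3D_14d replicate 1 (adjusted p = 0.00255 from edgeR). Of 7 factors of transcription and chromatin, 1 rose and 2 fell at day 7, and 2 fell at day 14. MYC, the partner of PIM kinases in lymphoma models, fell from 459 ± 30.6 CPM to 93.0 ± 16.7 at day 7 and 108 ± 27.7 at day 14 (adjusted p = 8.69e-06 and 2.1e-05 from edgeR). MYB, whose activity PIM1 raises, fell from 71.3 ± 1.01 to 43.1 ± 3.69 and 22.3 ± 2.96 CPM (adjusted p = 0.0018 and 1.4e-05 from edgeR). CXCR4, the receptor that draws CLL cells to stroma, fell from 26.4 ± 1.65 to 11.2 ± 1.65 and 11.5 ± 2.24 CPM (adjusted p = 0.000339 and 0.000571 from edgeR), while the drug efflux pump ABCG2, with at most 41 counts in a library, was not tested.

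AKT kinases phosphorylate several of the same targets. AKT1 had 18.7 ± 0.981 CPM (SD, n = 3) in 2D, 25.1 ± 2.83 at day 7 (adjusted p = 0.0575 from edgeR) and 30.4 ± 4.78 at day 14 (adjusted p = 0.00624). AKT1 passed at day 7 in 6 of 19 alternatives, among them the removal of the GC trend (log2 fold change 0.53, adjusted p = 0.0105 from edgeR) and the fits without 3D_14d replicate 1 (0.0267) or 3D_14d replicate 3 (0.0357). AKT2 had 32.0 ± 2.57, 31.9 ± 1.93 and 36.5 ± 3.99 CPM, with adjusted p-values of 0.988 and 0.342 from edgeR, and its sign at day 7 changed between alternatives.

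**Figure D4:**
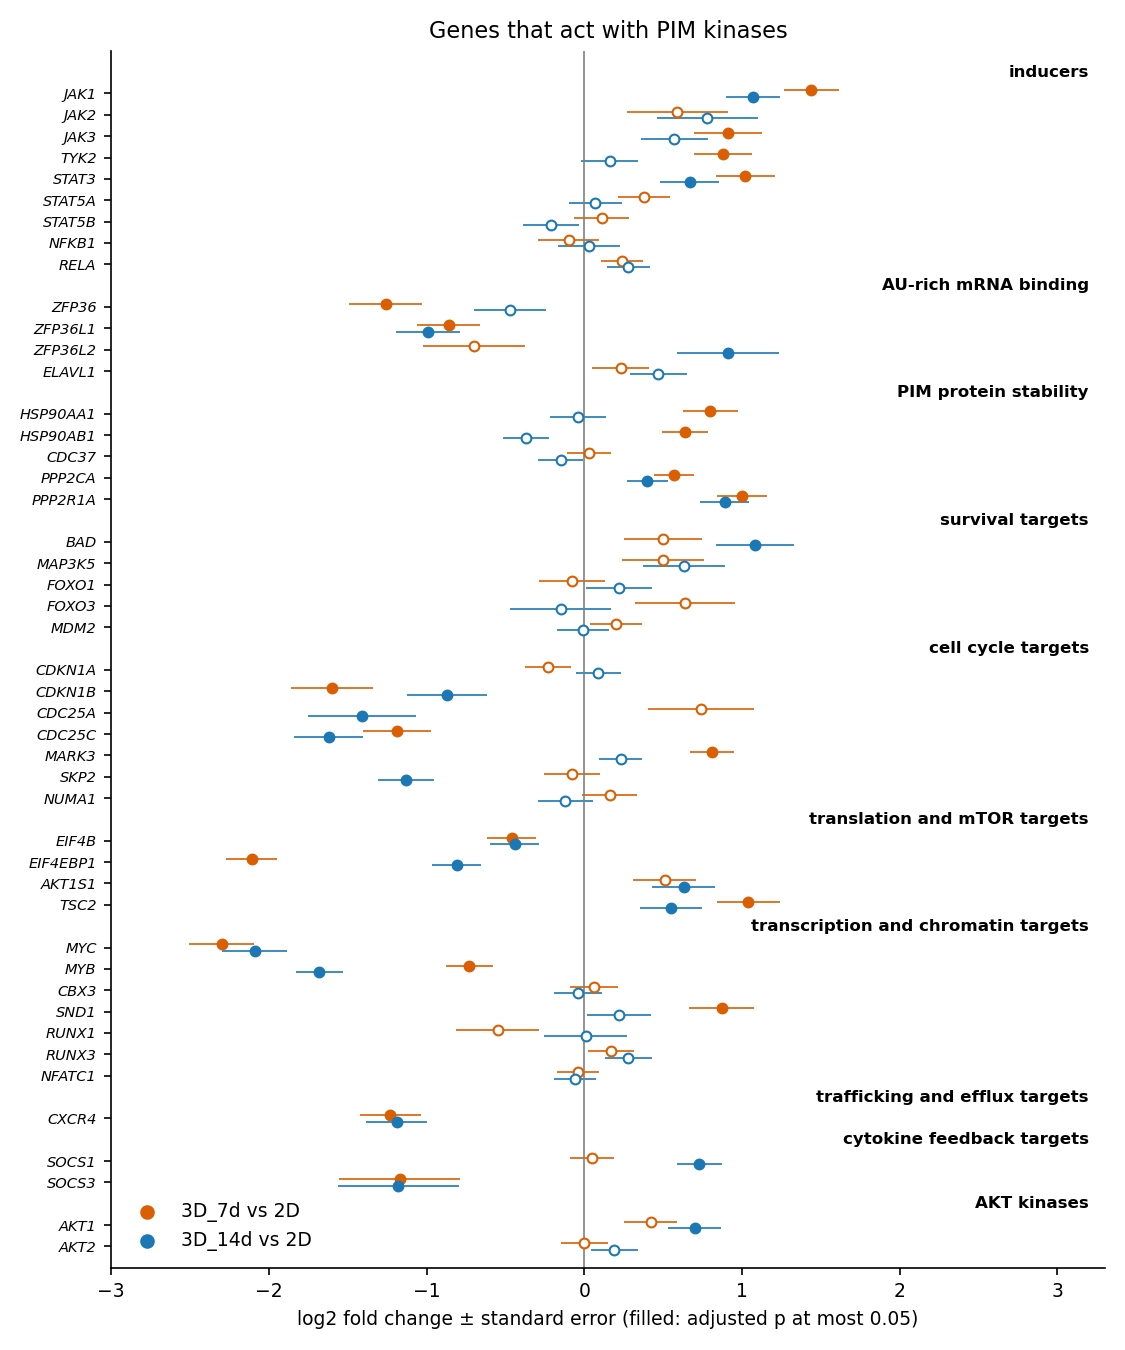
Log2 fold changes ± standard error (x axis) of the 46 tested genes of the PIM pathway lists, at day 7 (orange) and day 14 (blue) against 2D, with filled points for an adjusted p of at most 0.05 from edgeR. EIF4EBP1 and MYC lie farthest to the left at day 7, at -2.11 and -2.30, and JAK1 farthest to the right, at 1.44.

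For each PIM gene, the genes with the most similar profile were those with the smallest root mean square difference in log2 CPM over the 9 libraries, after centring each gene on its mean. For PIM3 these were CCNG2, KLHL17, SHMT2, MTHFD1L and HIC1, at distances of 0.166 to 0.206. SHMT2 and MTHFD1L encode mitochondrial enzymes of one-carbon folate metabolism, and SHMT2 averaged 785 CPM in 2D, against 230 at day 7 and 443 at day 14. CCNG2, a cyclin G family member linked to cell cycle arrest, had 57.3, 16.2 and 39.0 CPM. For PIM1 they were PCK2, IFI16, ZNF277, CAMK4 and RORA, at 0.087 to 0.105. PCK2, the mitochondrial phosphoenolpyruvate carboxykinase, had 211, 115 and 156 CPM, and IFI16, a sensor of DNA, 520, 300 and 385 CPM. For PIM2 they included HERPUD1, KIAA0040, FGR and HSPBAP1, at 0.061 to 0.107. HERPUD1, a component of degradation at the endoplasmic reticulum, was the nearest of all and had 418, 626 and 818 CPM, and FGR, a kinase of the SRC family, had 325, 452 and 642 CPM. Between the family members themselves the distance was 0.39 for PIM1 and PIM3, 0.687 for PIM1 and PIM2 and 0.951 for PIM2 and PIM3, where the median distance of all genes to PIM1 was 0.584 and to PIM2 0.557. These likenesses are a description over 9 libraries that share their 3 culture conditions. With total counts alone as the scaling, all 5 genes of each list were kept, and with profiles also scaled to unit variance, 1 of 5 was kept for each PIM gene.

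**Figure D5:**
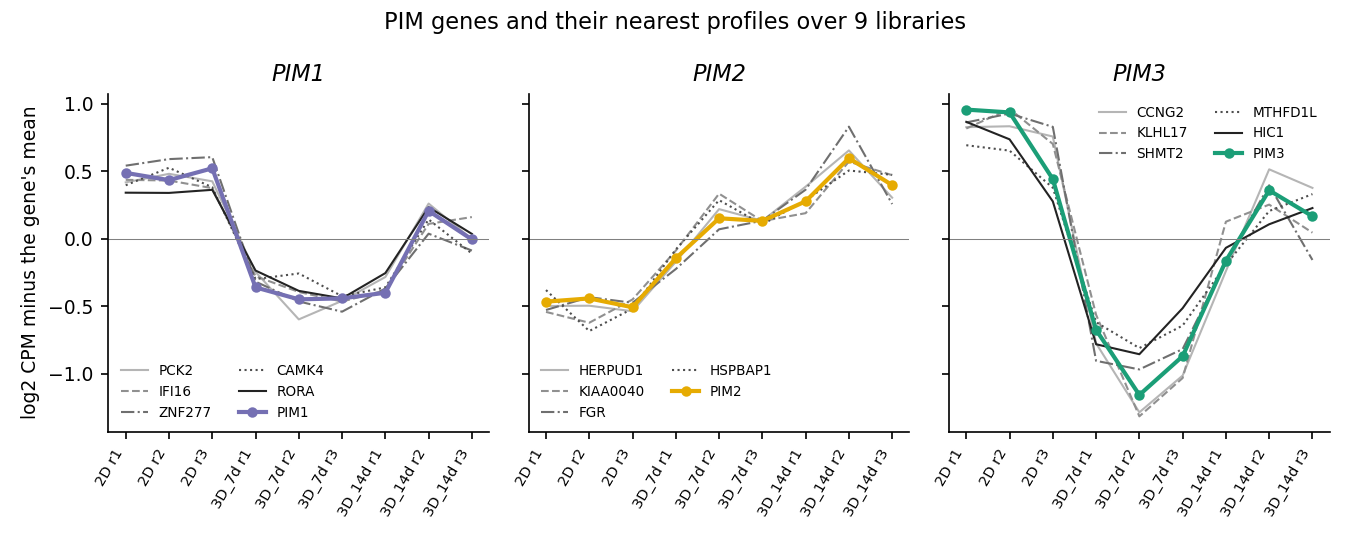
Log2 CPM minus the mean of the gene (y axis) in the 9 libraries (x axis) for each PIM gene (coloured points) and its nearest profiles named in the text (grey and black lines). Lines only join the libraries of a gene, and replicates have no order. The profiles of the neighbours follow the fall of PIM1 and PIM3 from 2D to day 7 and the higher levels of PIM2 in 3D.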

How the data were processed

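RNA of MEC1 cells was measured in 9 samples, with 3 libraries per culture condition. The authors trimmed reads with Trimmomatic (version 0.39), aligned them to GRCh38 with GENCODE release 31 using STAR (version 2.5.3a) and assigned them to genes with featureCounts (version 1.6.4). The deposited values are raw counts per gene symbol with the exon length, without normalization, and the setting for strand and for multiple alignments is not given in the sources used here. The filter kept 13463 genes, those that exceeded a CPM of 1 in 3 or more libraries. In R (version 4.3.3), edgeR (version 4.0.16) gave the TMM factors and was used to fit 1 model with a mean for each group and to test 3 contrasts with its quasi-likelihood test, with Benjamini-Hochberg adjustment over all retained genes and a threshold of 0.05. Standard errors follow from the fold change and the F statistic. CPM of single genes are relative to the retained counts, scaled by the TMM factors. The filter, the summed levels of the marker lists and RPKM use the total counts of a library, without these factors. Log2 CPM used a prior count of 2.

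Named genes were the PIM family, up to 2 called genes with the smallest p per pathway list and comparison with 2D (all genes of lists of up to 3) and the 5 nearest profiles. The members and lists were chosen with earlier results of these data known. Alternatives were DESeq2 (version 1.42.0) and its size factors, total counts alone, no filter or filterByExpr, a fit of only the 6 compared samples, a block for the replicate number, a loess trend (span 0.4) with GC content or gene length removed, and each library left out. The pipeline was tested on simulated counts. Depth was 54662799 to 85968686 reads per library, so that the spread between replicates, not counting error, set the precision. Promoters came from RefSeq (GRCh38.p14), where 3 of 3 members matched, and transcripts from GENCODE release 44. Some genes of the lists and profiles are not reported here.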

Additional observations from a re-analysis of the deposited data

Results flagged for a closer look

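PIM3 was set apart because its change against 2D differed between the time points. Its log2 fold change was -1.69 at day 7 and -0.66 at day 14, and the test of the difference, which is the comparison of day 14 with day 7, gave 1.02 (adjusted p = 0.0025 from edgeR). All 3 day 14 libraries, at 151 to 217 CPM, were above all 3 day 7 libraries, at 75.8 to 106 CPM. With the GC trend removed, the difference for PIM3 was 0.63 (adjusted p = 0.0259 from edgeR). With all libraries, the same test did not pass for PIM1 or PIM2, at 0.37 and 0.38. Without 3D_14d replicate 1 both passed, at 0.54 and 0.47 (adjusted p = 0.0055 and 0.0158 from edgeR).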

How the results depend on the processing

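Directions of all 9 PIM results were kept under all 19 alternatives each. Those of PIM1 and PIM3 at day 7 and of PIM1 and PIM2 at day 14, and that of PIM3 between the time points, also kept their side of the threshold. With no filter on low counts, PIM2 at day 7 was at 0.52 without passing (adjusted p = 0.0722 from edgeR), and with the Wald test of DESeq2, PIM2 between the time points passed at 0.39. Leaving out 1 library gave log2 fold changes of 0.44 to 0.59 for PIM2 at day 7, -0.85 to -0.53 for PIM3 at day 14, and 0.23 to 0.54 for PIM1 and 0.29 to 0.47 for PIM2 between the time points, with the changed calls named above. Without 1 library, the number of genes called at day 7 was 4278 to 7172 (5838 with all libraries). At day 14 it was 3204 to 5308 (4875), and between the time points 2291 to 4328 (3785). With only the 6 samples of the contrast, these numbers were 7800, 4325 and 2453. At day 14, 3204 genes were called without 2D replicate 3. Between the time points, 2291 were called without 3D_7d replicate 2 and 2417 without 3D_7d replicate 3. Fits without a library rest on fewer samples, and the cause of the other changes was not tested. With total counts alone the median of all genes shifted to -0.16 at day 7 and -0.18 at day 14, and up-regulated genes made up 37.6% and 33.0% of those called in place of 51.1% and 52.5%, while PIM2 was at 0.37 and 0.70 and PIM3 at -1.84 and -0.85. AKT2 at day 7 was 0.00319 with filterByExpr, 0.0547 with the GC trend removed, 0.0516 with the replicate block and the GC trend removed, and -0.12 to 0.0108 without 1 library. AKT2 at day 14 was -0.00969 and SOCS1 at day 7 was -0.11 with total counts alone, and SOCS1 was -0.0875 to 0.0886 without 1 library, but passed at 0.46 with the GC trend removed, with and without the replicate block (adjusted p = 0.0165 and 0.00933 from edgeR). Of 893 values of the named list genes under alternatives, 810 kept direction and side, 66 lost the call, 8 gained it and 9 changed sign.

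Deviations from the group means of samples with the same replicate number correlated by -0.10 to 0.185 over 9 pairs. Between 2D and 3D_14d the same-numbered pairs were at 0.185, 0.108 and 0.0931, and pairs with different numbers at -0.135 to 0.0399. Deviations from a group mean cancel within the group for each gene, so these ranges do not vary independently of each other. All same-numbered pairs with a 3D_7d library were below 0. Whether samples with the same number share an origin was not tested. With the replicate number as a block, 5760 genes were called at day 7, 4819 at day 14 and 3683 between the time points, and PIM1, PIM2 and PIM3 were at -0.90, 0.52 and -1.67 at day 7 and at -0.54, 0.89 and -0.65 at day 14, with no call of the family changed. SOCS3 at day 14 was the only named list gene to lose its call under the block alone. The 3 samples per group and the strand setting, which is not known, limit what small changes can be read.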
